A study of Drosophila melanogaster with 22 samples.

Results

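The genes described here encode the proteins of the cytosolic ribosome and the factors that start and carry on protein synthesis. The members were the 86 genes, of 11982 with a single gene symbol in the platform annotation, whose symbol starts with RpL or RpS (ribosomal proteins of the large and the small subunit), eIF (initiation factors) or eEF (elongation factors). Membership rested on the symbols and used no measured value, although the list was chosen with earlier results of these data known. A gene with several probe sets was represented by the one with the highest mean over all arrays.

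The arrays measured messenger RNA in S2 cells, a line grown from Drosophila melanogaster embryos that shares many traits with blood cells. Every culture, controls included, received 20 µg of double-stranded RNA (dsRNA), an agent that these cells absorb and that leads them to degrade transcripts of the same sequence, and was collected after 72 h. Cdk8 dsRNA was given to the cells of 2 arrays, and dsRNA against CycC, Med12 or Med13 to those of 4 arrays each. These 4 genes encode the kinase module of Mediator, the complex that links transcription factors to RNA polymerase II, and Med12 and Med13 are the products of kto and skd. The 8 control arrays comprised 4 with GFP dsRNA and 4 with luciferase (Luc) dsRNA, against reporter genes that fly cells do not carry. The labels give no genotype beyond the line and do not say which stretch of a transcript each dsRNA matched. Whether replicate arrays stem from separate cultures is not stated either, and the p-values thus cover the spread between arrays, which may be technical.

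A ribosome is built in the nucleolus, where RNA polymerase I makes the ribosomal RNA and many assembly factors fold and trim it while ribosomal proteins are added. Ribosomal proteins are needed in matched amounts, and their messages are among the most abundant in growing cells. Initiation factors bring the cap of the messenger RNA, the starter tRNA and the small subunit together and then join the large subunit, and elongation factors deliver each further tRNA and move the ribosome along.

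Each value below is an intensity from the deposited table on the log2 scale. Groups were compared with limma, and the words rose, fell and changed are kept for genes with a p-value under 0.05 after adjustment over all 5961 genes tested. Differences are given with the standard error (SE) of the fit. The targeted transcript stood at 14.4% of the control level with Cdk8 dsRNA, 3.56% with CycC, 9.98% with Med12 (kto) and 80.6% with Med13 (skd), and it passed the test each time. Between 7175 and 7214 probe sets per array reached an intensity of 16, and within a group no pair of arrays correlated below 0.996. Of 10 haemocyte markers 9 were over the floor defined below, the exception being NimC1. Of 4 named germline markers 3 were over it, and of 3 named neuron markers 1 (elav), while no named marker of muscle, fat body or gut was. The moderated SD of the fit, in which each gene's spread within groups is drawn toward a common value, had a median of 0.0793 over all genes and 0.0531 over the members. Because the arrays were normalized to one another, a change common to all transcripts could not be seen.

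A gene was tested if its log2 intensity was 4 or more on at least 2 arrays, and 72 of the 86 members passed this floor. The other 14 were below it on all 22 arrays, with means between 2.18 and 3.21. They held 1 gene of each of 5 paralogous pairs: RpL10Aa beside RpL10Ab, RpL37-2 beside RpL37-1, eIF3d2 beside eIF3d1, eIF3f2 beside eIF3f1 and eIF3g2 beside eIF3g1. RpS28-like and RpS28a were below the floor, and RpS28b had a mean of 15.47. In the eIF4E family of cap-binding proteins eIF4E3, eIF4E4, eIF4E5 and eIF4E7 were below it, and eIF4E1, eIF4E6 and eIF4EHP were measured. The elongation factor eEF1alpha2, RpL22-like and RpS10a made up the rest. RefSeq lists 144 fly genes with these prefixes, of which 58 were not members through this annotation and were not analysed here, among them eEF1alpha1, eEF1beta, eEF2, RpS19a and RpS5a.

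The measured members lay near the top of the measuring range. The median member had a mean log2 intensity of 13.48, against 9.16 for the median of all genes tested, and 30 of the 50 brightest genes were members. Of 35 ribosomal protein genes tested, 29 had a mean of 14 or more and 20 of 15 or more. The brightest probe set on each array lay between 15.94 and 16.11. A probe set's brightness depends on its probes as well as on its transcript, so these values place the members in the range and do not rank their messages.

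Few members passed the test in any knockdown, and those that did were mostly initiation and elongation factors or relatives of ribosomal proteins rather than the core proteins themselves. With Cdk8 dsRNA 3 members rose and 1 fell, where 10.6% of all genes tested rose and 8.07% fell. With CycC dsRNA 5 rose and 3 fell, beside 13.4% and 10.9% of all genes. With Med12 dsRNA 1 rose and 8 fell, beside 26.5% and 15.5%, and with Med13 dsRNA 3 rose and 5 fell, beside 21.0% and 11.2%. The median member differed from the controls by -0.02 with Cdk8, -0.01 with CycC, -0.01 with Med12 and 0.00 with Med13, and the median of all genes by 0.02, 0.01, 0.04 and 0.03. At least 1 of the 4 comparisons was passed by 16 of 72 members, beside 58.5% of all genes, and 56 members passed none. In an F test over the 4 knockdowns 13 of 72 members passed, beside 54.5% of all genes.

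Separation of the arrays, which needs no model, gave counts above the controls that were low beside all genes. The counts below the controls were near the shares of all genes. Separation was judged on unrounded values, so arrays printed as equal may still be separate or overlap. All Cdk8 arrays lay above all controls for 5 members and below them for 8, beside 15.4% and 10.8% of all genes. The same held for 2 and 4 members with CycC (7.68% and 6.63%), 1 and 6 with Med12 (14.7% and 9.63%), and 1 and 4 with Med13 (10.9% and 6.48%). In the contrast of the pairs described below it held for 0 and 5 members, beside 13.0% and 9.93%.

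The Cdk8 and CycC counts leaned on single arrays. The Cdk8 count of 4 became 1 without either Cdk8 array and 2 without GFP replicate 4, Luc replicate 1 or Luc replicate 3. The CycC count of 8 became 2 without CycC replicate 3, 4 without CycC replicate 4, and 5 without GFP replicate 2 or GFP replicate 3. For Med12 the split of all genes into risen and fallen depended on the scaling, with 1577 and 922 as deposited and 1218 and 1189 when each array was centred on its median, and for Med13 with 1249 and 669 against 941 and 917. The members called after centring were 1 risen and 12 fallen with Med12 and 3 risen and 9 fallen with Med13.

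Between the control groups no member passed the test, beside 0.0336% of all genes. An unadjusted p under 0.05 (limma) was found there for 0 of 72 members, beside 331 of all 5961 genes. Between Cdk8 and CycC 1 member passed, beside 0.101%, and between Med12 and Med13 none did, beside 0.872%. Between Med12 and Med13 an unadjusted p under 0.05 (limma) was found for 4 of 72 members, beside 660 of all 5961 genes. A contrast between the Med12 and Med13 arrays and the Cdk8 and CycC arrays (each pair averaged by group), in which the controls drop out, called 3 members higher and 7 lower in the Med12 and Med13 arrays, beside 26.9% and 22.2% of all genes.

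**Figure D1:**
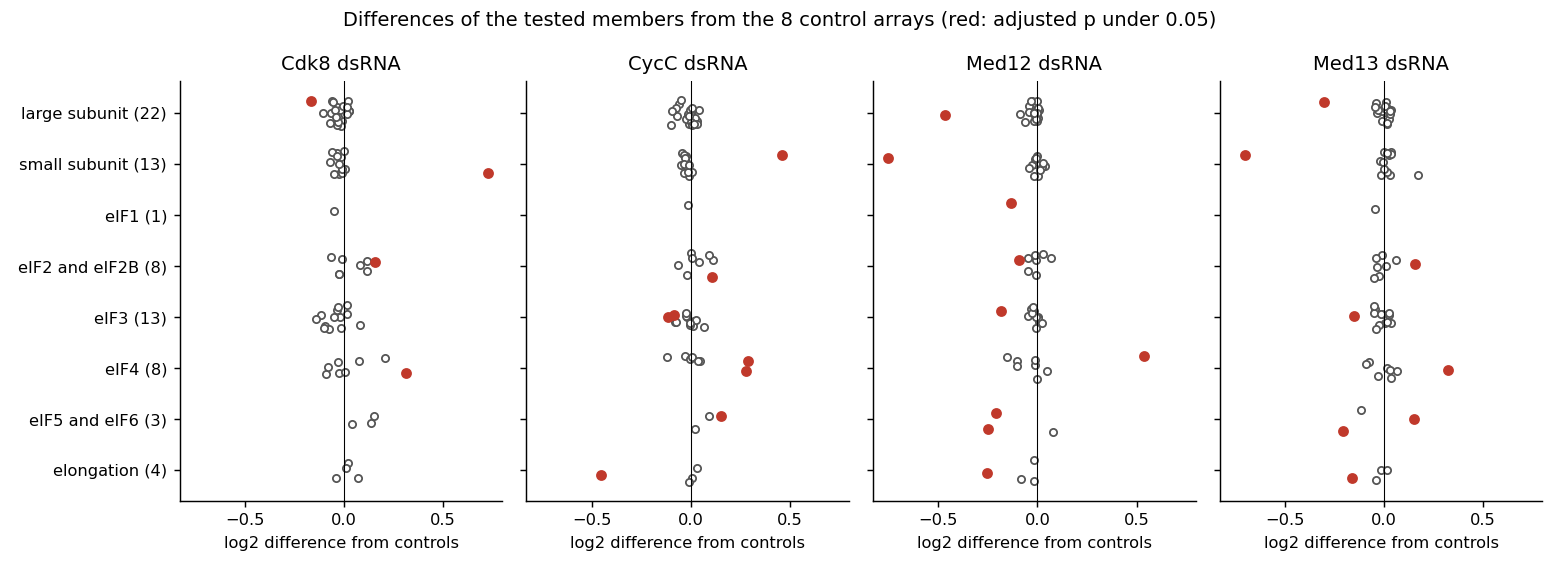
Fitted log2 difference of each tested member from the mean of the GFP and Luc controls (x axis), 1 panel per dsRNA, with members sorted by role on the y axis and the number tested in parentheses. Each circle is 1 gene and filled red circles passed the test. Among the ribosomal protein symbols only RpS19b, RpLP0-like and RpL24-like have a filled circle, and the others lie between -0.11 and 0.17.

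On the brightest probe set of each gene, the core of the ribosome differed least. None of the 29 ribosomal protein genes with a mean of 14 or more passed the test in any of the 8 comparisons. Their differences from the controls lay between -0.07 and 0.02 with Cdk8 dsRNA, -0.07 and 0.03 with CycC, -0.06 and 0.04 with Med12, and -0.04 and 0.04 with Med13. The smallest adjusted p among the 29 was 0.214, 0.0892, 0.0637 and 0.291 in the same order (limma), and the number with an unadjusted p under 0.05 was 0, 1, 1 and 0. The 95% intervals of all 29 stayed between 89.4% and 108% of the control level with Cdk8, 90.5% and 107% with CycC, 91.9% and 107% with Med12, and 93.5% and 107% with Med13.

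RpL41, which encodes a very short peptide of the large subunit, was the brightest member. Its log2 intensities were 15.92, 15.92, 15.94 and 15.87 with GFP dsRNA, 15.93, 15.86, 15.89 and 15.97 with Luc, 15.86 and 15.87 with Cdk8, 15.86, 15.87, 15.82 and 15.91 with CycC, 15.87, 15.83, 15.90 and 15.91 with Med12, and 15.89, 15.96, 15.88 and 15.95 with Med13. Every knockdown group overlapped the controls, and both Cdk8 arrays lay below all Med13 arrays. RpL15, a protein of the large subunit, had 15.76, 15.74, 15.74 and 15.69 with GFP dsRNA, 15.76, 15.78, 15.74 and 15.73 with Luc, 15.76 and 15.70 with Cdk8, 15.74, 15.74, 15.71 and 15.70 with CycC, 15.72, 15.76, 15.74 and 15.75 with Med12, and 15.74, 15.77, 15.79 and 15.73 with Med13, and no group stood apart.

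The acidic stalk of the large subunit, where translation factors dock, is built from RpLP0, RpLP1 and RpLP2. RpLP1 read 15.73, 15.72, 15.69 and 15.66 with GFP dsRNA, 15.69, 15.75, 15.71 and 15.74 with Luc, 15.76 and 15.69 with Cdk8, 15.72, 15.75, 15.74 and 15.70 with CycC, 15.68, 15.74, 15.68 and 15.72 with Med12, and 15.72, 15.77, 15.75 and 15.71 with Med13. RpLP0 read 15.53, 15.50, 15.53 and 15.47 with GFP dsRNA, 15.51, 15.52, 15.53 and 15.51 with Luc, 15.48 and 15.47 with Cdk8, 15.50, 15.49, 15.53 and 15.50 with CycC, 15.49, 15.49, 15.51 and 15.51 with Med12, and 15.50, 15.50, 15.57 and 15.50 with Med13. A Med13 array had the highest RpLP0 value. Both Cdk8 arrays lay below all Luc, CycC, Med12 and Med13 arrays and overlapped the controls through 1 GFP array.

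RpS27A, a small-subunit protein that is made as a fusion with ubiquitin, read 15.55, 15.58, 15.53 and 15.50 with GFP dsRNA, 15.55, 15.56, 15.56 and 15.53 with Luc, 15.49 and 15.48 with Cdk8, 15.54, 15.56, 15.53 and 15.50 with CycC, 15.52, 15.58, 15.55 and 15.56 with Med12, and 15.52, 15.58, 15.55 and 15.51 with Med13. Both Cdk8 arrays lay below every control array, a pattern seen in 10.8% of all genes in this comparison, and the difference did not pass the test (-0.06 ± 0.03 SE, adjusted p = 0.214, limma). RpL32, often used as a reference transcript in flies, differed from the controls by -0.02, 0.00, 0.00 and 0.02 with Cdk8, CycC, Med12 and Med13 dsRNA.

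Other genes as bright as the ribosomal proteins did pass the test. Of 48 other genes with a mean of 14 or more, 9 changed with Cdk8 dsRNA, 11 with CycC, 16 with Med12 and 14 with Med13. Over all 82 genes at that level, members included, the shares were 11.0%, 14.6%, 20.7% and 17.1%. Among the 8 other genes with a mean of 15 or more 2, 3, 5 and 4 changed, beside none of the 20 ribosomal protein genes at that level. Whether signals so close to the array maximum understate differences was not tested. Under other settings a few of the 29 were called, at most 2 per comparison in any 1 setting. RpL17 fell with Cdk8 and CycC after quantile normalization, and RpL39 fell with CycC in 3 of 32 alternatives. With Med12 RpL27 fell in 6 and RpS21 in 1. In the contrast of the pairs RpL17 or RpS12 was called higher in 8 of 30. RpS30 fell with CycC and Med12 when all probe sets of a gene were averaged. Its brighter probe set (15.03) differed by -0.01 ± 0.04 with Med12, and its other one (6.84) by -0.28 ± 0.09 (unadjusted p = 0.00473, limma). Dimmer probe sets of RpL3 and RpS7 also differed in some comparisons. An RpL3 probe set (9.83) gave -0.19 ± 0.08 with Cdk8 (unadjusted p = 0.0283, limma). Another (4.05) gave -0.20 ± 0.05 between Med12 and Med13 (unadjusted p = 0.00153). For RpS7 one at 4.84 gave 0.12 ± 0.05 with Med12 (unadjusted p = 0.0247). The second RpS29 probe set (14.67) differed by -0.06 to 0.02 over the 4 knockdowns.

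**Figure D2:**
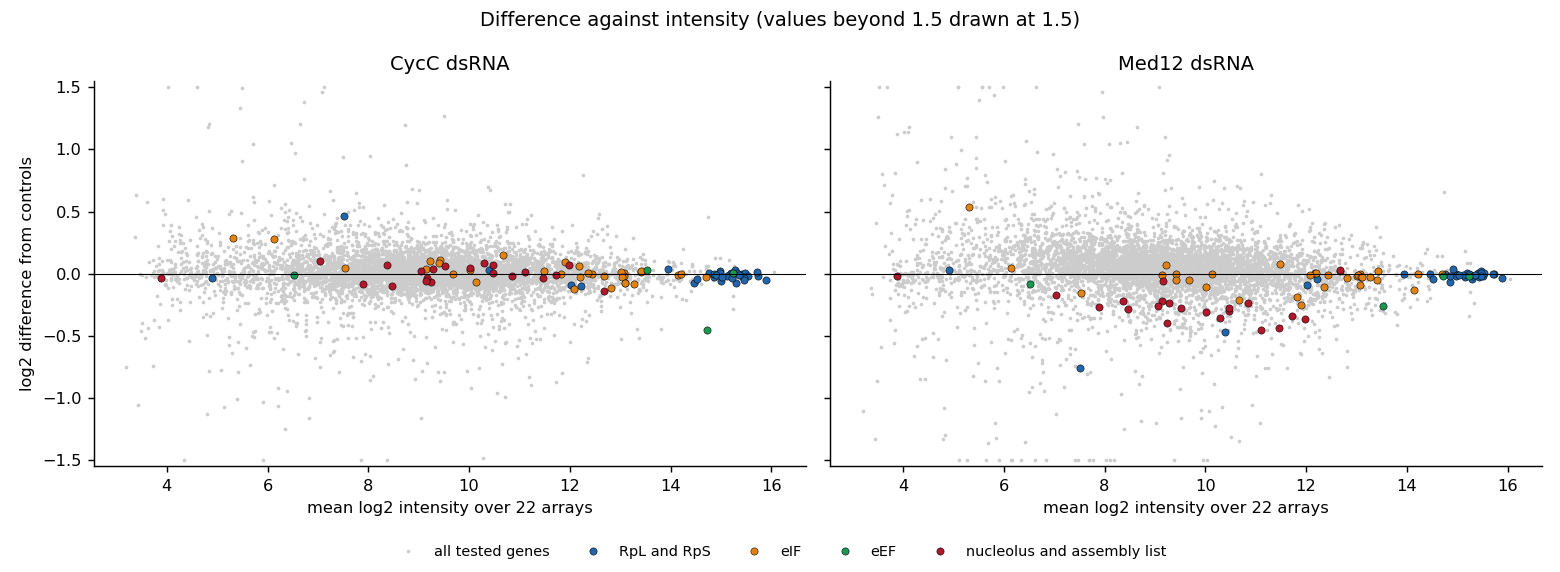
Log2 difference from controls (y axis) against mean log2 intensity over 22 arrays (x axis) for CycC and Med12 dsRNA, 1 point per gene, with members and the nucleolus and ribosome assembly list in colour. The ribosomal proteins at 14 or more lie between -0.07 and 0.04 in both panels, while many assembly genes lie below 0 in the Med12 panel.

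RpS19b was the member with the largest differences, higher than the controls with Cdk8 and CycC dsRNA and lower with Med12 and Med13. It encodes a paralogue of the small-subunit protein RpS19 that is known from the fly germline. Its log2 intensities were 7.73, 7.76, 7.61 and 7.64 with GFP dsRNA, 7.61, 7.34, 7.60 and 7.71 with Luc, 8.33 and 8.37 with Cdk8, 8.02, 7.83, 8.26 and 8.24 with CycC, 6.80, 7.04, 6.73 and 6.91 with Med12, and 6.87, 6.93, 6.98 and 6.91 with Med13. The Cdk8 and CycC arrays lay above every control array, and the Med12 and Med13 arrays below every one.

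RpS19b rose by 0.73 ± 0.10 with Cdk8 dsRNA, to 165% of the control level (adjusted p = 1.31e-05, limma), and by 0.46 ± 0.07 with CycC, to 138% (adjusted p = 9.61e-05). It fell by 0.76 ± 0.07 with Med12, to 59.2% (adjusted p = 7.88e-08), and by 0.70 ± 0.07 with Med13, to 61.5% (adjusted p = 3.4e-07). The Med12 and Med13 arrays together were lower than the Cdk8 and CycC arrays by a difference of -1.32 ± 0.07, or 39.98% of their level (adjusted p = 1.57e-12). Between Cdk8 and CycC (adjusted p = 0.963) and between Med12 and Med13 (adjusted p = 0.89) it did not pass the test. Every one of these 5 calls was kept in all alternatives run.

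Other germline genes also differed between these groups. Of 5 germline markers 4 were named and 3 (piwi, aub and bam) were over the floor, with vas below it at 2.55 in the controls. The mean of bam was also under the floor in the controls, at 3.48, and was 5.98 in its highest group. Its place over the floor thus came from groups where it was high, and the sum below includes it. The summed intensity of the 4 lay between 128.5 and 151.7 on the control arrays, 265.5 and 272.6 with Cdk8 dsRNA, 196.1 and 283.0 with CycC, 146.0 and 164.0 with Med12, and 129.3 and 140.0 with Med13. The Cdk8 and CycC arrays were thus all above the controls in both RpS19b and the germline sum, while the Med13 arrays, low in RpS19b, lay within the control range of the sum. Their part in the RpS19b result was not tested, and in such bulk samples a change in the number of cells of a type and a change in RNA per cell cannot be told apart.

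RpS5b, another paralogue known from the germline, was the weakest tested member, at 4.86, 4.89, 4.87 and 4.93 with GFP dsRNA, 4.88, 4.88, 4.85 and 4.87 with Luc, 4.81 and 4.81 with Cdk8, 4.79, 4.84, 4.87 and 4.88 with CycC, 4.87, 4.72, 4.87 and 5.16 with Med12, and 4.86, 4.90, 4.89 and 5.55 with Med13. Both Cdk8 arrays lay below all controls. It did not pass the test in any knockdown (adjusted p from 0.177 to 0.842, limma). The Med13 mean is raised by a single array.

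**Figure D3:**
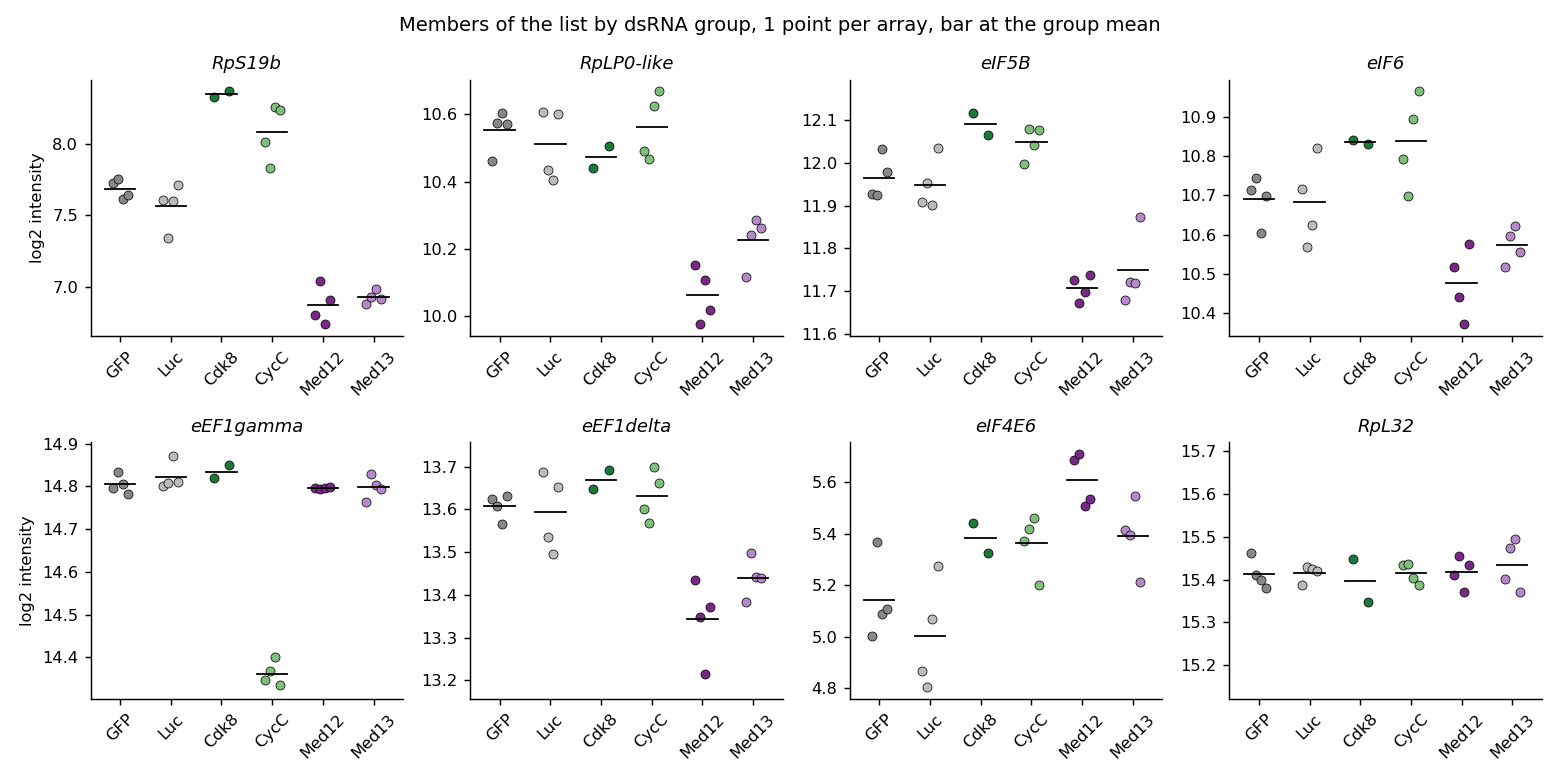
Log2 intensity (y axis) of 8 members on every array, grouped by dsRNA (x axis), with 1 point per array and a bar at the group mean; each panel has its own y range. RpS19b is high with Cdk8 and CycC and low with Med12 and Med13, eEF1gamma is low with CycC, and RpL32 shows no separation.

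Relatives of large-subunit proteins that act in assembly formed the other changed ribosomal symbols. RpLP0-like is related to yeast Mrt4, which holds the place of the stalk base RpLP0 on the unfinished large subunit. It read 10.46, 10.58, 10.60 and 10.57 with GFP dsRNA, 10.61, 10.44, 10.41 and 10.60 with Luc, 10.44 and 10.51 with Cdk8, 10.49, 10.47, 10.62 and 10.67 with CycC, 10.15, 9.98, 10.11 and 10.02 with Med12, and 10.12, 10.24, 10.29 and 10.26 with Med13. All Med12 and Med13 arrays lay below all control arrays.

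RpLP0-like fell by 0.47 ± 0.05 with Med12 dsRNA, to 72.3% of the control level (adjusted p = 2.9e-07, limma), and by 0.31 ± 0.05 with Med13, to 80.9% (adjusted p = 9.03e-05). With Cdk8 and CycC it differed by -0.06 and 0.03 and did not pass the test. The contrast of the pairs gave -0.37 ± 0.05 (adjusted p = 1.2e-06). The mature stalk gene RpLP0 itself differed by -0.02 with Med12 and 0.00 with Med13.

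RpL24-like, related to yeast Rlp24 of the assembling large subunit, read 12.22, 12.28, 12.31 and 12.25 with GFP dsRNA, 12.30, 12.25, 12.34 and 12.15 with Luc, 12.09 and 12.10 with Cdk8, 12.15, 12.17, 12.17 and 12.15 with CycC, 12.13, 12.30, 12.19 and 12.26 with Med12, and 12.16, 12.18, 12.38 and 12.18 with Med13. Both Cdk8 arrays lay below every control array, and it fell by 0.17 ± 0.06 with Cdk8 (adjusted p = 0.0419, limma). This call was lost in 7 of 22 fits that left out 1 array and in 5 of 10 other alternatives. RpL7-like differed by -0.11, -0.09, -0.09 and -0.05 with Cdk8, CycC, Med12 and Med13 and passed in none (adjusted p from 0.0635 to 0.367).

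Among the initiation factors, eIF5B and eIF6 were lower in the Med12 and Med13 arrays than in the Cdk8 and CycC arrays. eIF5B is the GTPase that joins the large subunit to the small one at the start codon. It read 11.93, 11.92, 12.03 and 11.98 with GFP dsRNA, 11.91, 11.95, 11.90 and 12.03 with Luc, 12.12 and 12.06 with Cdk8, 11.998, 12.08, 12.04 and 12.08 with CycC, 11.72, 11.67, 11.70 and 11.74 with Med12, and 11.68, 11.72, 11.72 and 11.87 with Med13. The Med12 and Med13 arrays lay below every control array, the Cdk8 arrays above every one, and the CycC arrays overlapped the controls.

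eIF5B fell by 0.25 ± 0.04 with Med12 dsRNA, to 84.1% (adjusted p = 1.65e-05, limma), and by 0.21 ± 0.04 with Med13, to 86.5% (adjusted p = 0.000177). With Cdk8 it differed by 0.13 ± 0.05 (adjusted p = 0.0549) and with CycC by 0.09 ± 0.04 (adjusted p = 0.0756). The contrast of the pairs gave -0.34 ± 0.03 (adjusted p = 4.68e-08).

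eIF6 binds the unfinished large subunit and keeps it from joining the small one too early. It read 10.71, 10.74, 10.61 and 10.70 with GFP dsRNA, 10.72, 10.57, 10.62 and 10.82 with Luc, 10.84 and 10.83 with Cdk8, 10.79, 10.70, 10.90 and 10.97 with CycC, 10.52, 10.44, 10.37 and 10.58 with Med12, and 10.52, 10.60, 10.62 and 10.55 with Med13. A single Med12 array lay within the control range, and the CycC arrays reached higher than the controls with an overlap. The Cdk8 arrays lay above all controls. eIF6 fell by 0.21 ± 0.05 with Med12 (adjusted p = 0.00268, limma) and rose by 0.15 ± 0.05 with CycC (adjusted p = 0.0369), a call that was lost in 5 of 22 fits without 1 array and in 4 of 10 other alternatives. It differed by 0.15 ± 0.07 with Cdk8 (adjusted p = 0.128) and -0.11 ± 0.05 with Med13 (adjusted p = 0.0991). In the contrast of the pairs, which does not use the controls, it differed by -0.31 ± 0.05 (adjusted p = 1.46e-05), with all Med12 and Med13 arrays below all Cdk8 and CycC arrays, a separation that 9.93% of all genes showed in that direction.

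eIF5, which makes eIF2 hydrolyse its GTP once the start codon is found, read 11.40, 11.37, 11.51 and 11.47 with GFP dsRNA, 11.37, 11.49, 11.43 and 11.46 with Luc, 11.48 and 11.47 with Cdk8, 11.42, 11.51, 11.52 and 11.39 with CycC, 11.54, 11.50, 11.45 and 11.57 with Med12, and 11.53, 11.50, 11.65 and 11.66 with Med13. It rose by 0.15 ± 0.04 with Med13 dsRNA (adjusted p = 0.00685, limma), the lowest Med13 array lying within the control range. With Med12 it differed by 0.08 ± 0.04 (adjusted p = 0.117).

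The eIF3 complex, the scaffold that holds the small subunit ready for the messenger RNA, had 13 tested members, and 3 of them changed in at least 1 knockdown, beside 58.5% of all genes. The loosely bound subunit eIF3j read 11.83, 11.95, 11.89 and 12.005 with GFP dsRNA, 11.89, 11.80, 11.84 and 11.89 with Luc, 11.79 and 11.83 with Cdk8, 11.89, 11.87, 11.86 and 11.92 with CycC, 11.75, 11.65, 11.69 and 11.73 with Med12, and 11.77, 11.74, 11.64 and 11.80 with Med13. It fell by 0.18 ± 0.04 with Med12 (adjusted p = 0.000338, limma) and by 0.15 ± 0.04 with Med13 (adjusted p = 0.00262), and both sets of arrays lay below all controls. Its contrast of the pairs was -0.13 ± 0.03 (adjusted p = 0.00309).

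eIF3k and eIF3h, subunits at the edge of the complex, fell with CycC dsRNA. eIF3k read 12.88, 12.88, 12.87 and 12.83 with GFP dsRNA, 12.83, 12.85, 12.87 and 12.84 with Luc, 12.75 and 12.72 with Cdk8, 12.75, 12.76, 12.68 and 12.77 with CycC, 12.71, 12.89, 12.85 and 12.84 with Med12, and 12.77, 12.76, 12.88 and 12.81 with Med13. It fell by 0.11 ± 0.03 with CycC (adjusted p = 0.0148, limma), a call lost without CycC replicate 3 (adjusted p = 0.0757) and with the Luc arrays as the only control (adjusted p = 0.0584). eIF3h read 13.24, 13.28, 13.34 and 13.24 with GFP dsRNA, 13.29, 13.34, 13.35 and 13.31 with Luc, 13.23 and 13.17 with Cdk8, 13.24, 13.21, 13.21 and 13.20 with CycC, 13.24, 13.32, 13.24 and 13.30 with Med12, and 13.24, 13.29, 13.34 and 13.23 with Med13. It fell by 0.08 ± 0.03 with CycC (adjusted p = 0.042), a call lost in 9 of 22 fits without 1 array. All CycC arrays of both genes lay below all controls, as 6.63% of all genes did. The Cdk8 arrays of both genes also lay below all controls, with differences of -0.12 ± 0.04 and -0.10 ± 0.04 that did not pass (adjusted p = 0.0595 and 0.079).

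The other 10 tested subunits of eIF3, among them the core subunits eIF3a, eIF3b and eIF3c, passed the test in no knockdown. Both Cdk8 arrays of eIF3l and eIF3m lay below all controls, as for eIF3k and eIF3h. That made 4 of 13 eIF3 members, beside 10.8% of all genes. The largest eIF3 difference with Cdk8 was that of eIF3m, at -0.14. eIF3a differed by 0.08, 0.07, 0.01 and 0.03 with Cdk8, CycC, Med12 and Med13, and eIF3b by -0.02, -0.02, 0.00 and 0.00.

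eIF1, which guards the choice of the start codon, read 14.18, 14.25, 14.19 and 14.18 with GFP dsRNA, 14.19, 14.13, 14.16 and 14.18 with Luc, 14.06, 14.09, 13.99 and 14.07 with Med12, and 14.12, 14.15, 14.17 and 14.10 with Med13. All Med12 arrays lay below all controls, and eIF1 fell by 0.13 ± 0.03 with Med12 (adjusted p = 0.000614, limma). With Med13 it differed by -0.05 ± 0.03 (adjusted p = 0.198).

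eIF2 brings the starter tRNA, and eIF2B recharges it with GTP. Of 8 tested members with these names, eIF2beta fell by 0.09 ± 0.03 with Med12 (adjusted p = 0.0176, limma), its arrays reading 13.10, 13.08, 13.06 and 13.13 with GFP dsRNA, 13.10, 13.09, 13.10 and 13.11 with Luc, and 12.98, 12.99, 12.96 and 13.07 with Med12, with the highest Med12 array inside the control range. The eIF2B subunits passed in no comparison with the controls. eIF2Bdelta was lower in the Med12 and Med13 arrays than in the Cdk8 and CycC arrays by a difference of -0.15 ± 0.03 (adjusted p = 0.000794).

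eIF2D, which in mammals delivers starter tRNA without eIF2 and helps recycle ribosomes, read 9.15, 9.18, 9.17 and 9.15 with GFP dsRNA, 9.08, 9.13, 9.21 and 9.13 with Luc, 9.35 and 9.25 with Cdk8, 9.22, 9.23, 9.30 and 9.28 with CycC, 9.22, 9.26, 9.20 and 9.20 with Med12, and 9.21, 9.28, 9.45 and 9.27 with Med13. The Cdk8 and CycC arrays lay above all controls, and so did the Med13 arrays. eIF2D rose by 0.16 ± 0.05 with Cdk8 (adjusted p = 0.0311, limma), by 0.11 ± 0.04 with CycC (adjusted p = 0.0468) and by 0.15 ± 0.04 with Med13 (adjusted p = 0.0037). The Cdk8 call was lost without either Cdk8 array (adjusted p = 0.388 and 0.0514), and the CycC call in 17 of 22 fits without 1 array.

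Among 72 members 1 rose in all 4 knockdowns, beside 143 of all 5961 genes, in comparisons that share their controls. This was eIF4E6, of the factors that bind the cap and unwind the messenger RNA. It is a relative of the cap-binding protein eIF4E1 and lay just over the floor, with intensities of 5.002, 5.37, 5.09 and 5.11 with GFP dsRNA, 4.87, 4.80, 5.07 and 5.27 with Luc, 5.44 and 5.33 with Cdk8, 5.37, 5.42, 5.46 and 5.20 with CycC, 5.69, 5.71, 5.51 and 5.54 with Med12, and 5.41, 5.40, 5.55 and 5.21 with Med13. All Med12 arrays lay above all controls, and the other 3 groups overlapped them.

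eIF4E6 rose by 0.54 ± 0.08 with Med12 dsRNA, to 145% (adjusted p = 2.84e-05, limma), by 0.32 ± 0.08 with Med13 (adjusted p = 0.00545), by 0.29 ± 0.08 with CycC (adjusted p = 0.0139) and by 0.31 ± 0.11 with Cdk8 (adjusted p = 0.0481). The Cdk8 call was lost in 17 of 22 fits without 1 array, and the CycC call without CycC replicate 3 (adjusted p = 0.0579). The Cdk8 call was also lost in 5 of 9 other alternatives. With the GFP arrays as the only control the Cdk8, CycC and Med13 calls were all lost (adjusted p = 0.189, 0.122 and 0.0582). The main cap-binding protein eIF4E1 differed by -0.03, -0.01, -0.01 and 0.07 with Cdk8, CycC, Med12 and Med13 and passed in none.

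eIF4H2, named after a helper of the helicase eIF4A, read 6.12, 5.95, 6.43 and 6.05 with GFP dsRNA, 5.68, 6.19, 6.11 and 5.90 with Luc, 6.46 and 6.05 with Cdk8, 6.12, 6.48, 6.39 and 6.35 with CycC, 6.11, 6.14, 6.08 and 6.05 with Med12, and 6.12, 6.06, 6.10 and 6.07 with Med13. It rose by 0.28 ± 0.09 with CycC (adjusted p = 0.0334, limma), with arrays that overlapped the controls, and the call was lost in 7 of 22 fits without 1 array. The helicase eIF4A differed by -0.03 to 0.02, the scaffold eIF4G1 by -0.10 to 0.07 and eIF4B, on its brightest probe set, by -0.12 to 0.03 over the 4 knockdowns, and none of these passed. On a further eIF4B probe set (mean 11.41) the difference with CycC was -0.14 ± 0.04 (unadjusted p = 0.0047, limma). Another (11.17) gave -0.09 ± 0.05 (unadjusted p = 0.0701). In the contrast of the pairs these differed by 0.10 ± 0.04 and 0.17 ± 0.04 (unadjusted p = 0.0157 and 0.00135, limma).

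Among the elongation factors, eEF1gamma changed with 1 dsRNA and not with the others. It is a subunit of the exchange factor that reloads eEF1A, the carrier of charged tRNA, with GTP. It read 14.80, 14.83, 14.81 and 14.78 with GFP dsRNA, 14.80, 14.81, 14.87 and 14.81 with Luc, 14.82 and 14.85 with Cdk8, 14.35, 14.37, 14.40 and 14.33 with CycC, 14.80, 14.79, 14.80 and 14.80 with Med12, and 14.76, 14.83, 14.80 and 14.79 with Med13. All 4 CycC arrays lay below all 18 other arrays. The Cdk8, Med12 and Med13 arrays overlapped the controls.

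eEF1gamma fell by 0.45 ± 0.02 with CycC dsRNA, to 73.1% of the control level (adjusted p = 2.63e-11, limma), and differed by 0.02 ± 0.03 with Cdk8, -0.02 ± 0.02 with Med12 and -0.02 ± 0.02 with Med13 (adjusted p = 0.713, 0.597 and 0.659). Tested directly, it was higher with Cdk8 than with CycC by 0.47 ± 0.035 (adjusted p = 3.12e-08), the 1 member called in that comparison. Both calls were kept in all alternatives run. Whether the CycC dsRNA shares sequence with eEF1gamma was not tested.

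eEF1delta, another subunit of the same exchange factor, followed a different pattern. It read 13.62, 13.61, 13.57 and 13.63 with GFP dsRNA, 13.69, 13.53, 13.50 and 13.65 with Luc, 13.65 and 13.69 with Cdk8, 13.60, 13.57, 13.70 and 13.66 with CycC, 13.44, 13.35, 13.22 and 13.37 with Med12, and 13.38, 13.50, 13.44 and 13.44 with Med13. All Med12 arrays lay below all controls, and the Med13 arrays overlapped them. eEF1delta fell by 0.26 ± 0.04 with Med12, to 83.7% (adjusted p = 5.61e-05, limma), and by 0.16 ± 0.04 with Med13, to 89.5% (adjusted p = 0.00609). With CycC it differed by 0.03 ± 0.04 (adjusted p = 0.645), and the contrast of the pairs gave -0.26 ± 0.04 (adjusted p = 1.18e-05).

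eEF5, which helps the ribosome past runs of proline, had a mean of 15.23 and adjusted p from 0.553 to 0.905 in the 4 knockdowns. eEFSec, which delivers selenocysteine, read 6.51, 6.68, 6.43 and 6.46 with GFP dsRNA, 6.58, 6.55, 6.52 and 6.61 with Luc, 6.49 and 6.51 with Cdk8, 6.51, 6.44, 6.64 and 6.55 with CycC, 6.53, 6.36, 6.45 and 6.50 with Med12, and 6.46, 6.51, 6.53 and 6.50 with Med13, with every knockdown overlapping the controls and adjusted p from 0.144 to 0.91.

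RpS19b, RpLP0-like, eIF5B, eIF3j and eEF1delta fell with both Med12 and Med13 dsRNA. That made 5 of 72 members, beside 9.60% of all genes that fell in both, and the comparisons share their controls. The summed intensity of the 10 haemocyte markers was also lower there, at 62132 to 64908 on the Med12 arrays and 66846 to 70783 on the Med13 arrays, against 71064 to 78168 on the control arrays, 77107 to 79036 with Cdk8 and 74224 to 77132 with CycC. This sum of linear intensities rests most on the brightest markers, vkg and Col4a1 (log2 15.27 and 14.11 in the controls). Single markers did not move alike. Group means of Pxn ran from 8.31 to 10.84 beside 9.56 in the controls, and those of eater from 9.76 to 10.83 beside 10.83. The part of the lower sum in the results was not tested. eIF4E6 was the 1 member that rose in both, beside 17.9% of all genes. RpS19b, eIF4E6 and eIF2D rose with both Cdk8 and CycC, 3 of 72 beside 8.09%, and no member fell in both, beside 6.98%. In the contrast of the pairs the same 5 and eIF6 and eIF2Bdelta were lower, while eEF1gamma (0.20 ± 0.02, adjusted p = 3.68e-07, limma), eIF3k (0.07 ± 0.03, adjusted p = 0.0492) and eIF3h (0.07 ± 0.03, adjusted p = 0.0444) were higher. Of these, eEF1gamma was low with CycC only, at a group mean of 14.36, beside 14.83 with Cdk8 and 14.80 with both Med12 and Med13. The eIF3k and eIF3h calls were lost in 17 and 9 of 22 fits without 1 array.

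Genes that build ribosomes were then set beside those that form them, in lists also chosen with earlier results of these data known. Of 23 listed genes of the nucleolus and ribosome assembly 21 were tested, and 17 fell with Med12 dsRNA and 11 with Med13, while none rose in either. Of all genes 15.5% and 11.2% fell, and 26.5% and 21.0% rose. With CycC dsRNA 1 fell, Non1, and with Cdk8 none passed. The list's median difference was 0.02 with Cdk8, 0.00 with CycC, -0.27 with Med12 and -0.16 with Med13, the groups with the lower haemocyte sums, beside 0.02, 0.01, 0.04 and 0.03 for all genes. Over the single-array omissions and the scalings the Med12 count lay between 17 and 18 and the Med13 count between 8 and 15.

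Fib, the methyltransferase that modifies ribosomal RNA, had the smallest p of the list. It read 11.28, 11.27, 11.27 and 11.26 with GFP dsRNA, 11.19, 11.20, 11.25 and 11.26 with Luc, 11.31 and 11.22 with Cdk8, 11.14, 11.27, 11.36 and 11.29 with CycC, 10.80, 10.78, 10.81 and 10.80 with Med12, and 10.77, 10.95, 10.95 and 10.98 with Med13. All Med12 and Med13 arrays lay below all others. Fib fell by 0.45 ± 0.04 with Med12, to 73.2% (adjusted p = 1.51e-08, limma), and by 0.34 ± 0.04 with Med13, to 79.2% (adjusted p = 1.38e-06).

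Nop56, which sits with Fib in the same small nucleolar particles, read 11.53, 11.55, 11.62 and 11.62 with GFP dsRNA, 11.65, 11.49, 11.57 and 11.72 with Luc, 11.56 and 11.66 with Cdk8, 11.53, 11.39, 11.69 and 11.62 with CycC, 11.25, 11.07, 11.13 and 11.17 with Med12, and 11.25, 11.27, 11.32 and 11.47 with Med13. It fell by 0.44 ± 0.05 with Med12 (adjusted p = 2.06e-06, limma) and by 0.27 ± 0.05 with Med13 (adjusted p = 0.000809). NHP2, of the particles that convert uridine to pseudouridine, fell by 0.36 ± 0.04 and 0.23 ± 0.04, and bys, needed to finish the small subunit, by 0.39 ± 0.04 and 0.19 ± 0.04. Between Med12 and Med13 none of the 21 passed the test, and the list's median difference there was -0.10.

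**Figure D4:**
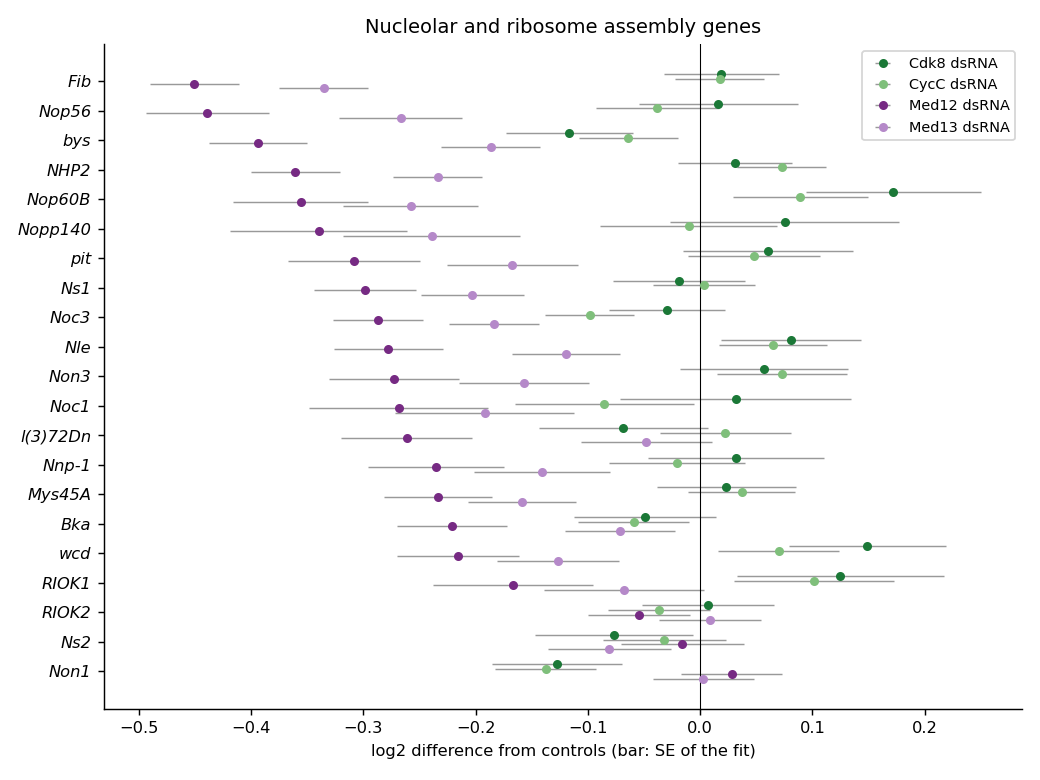
Log2 difference from controls (x axis) of the 21 tested genes of the nucleolus and ribosome assembly list (y axis), with 1 point per dsRNA and bars of 1 SE of the fit. The Med12 points lie furthest left for most genes, from -0.45 for Fib, and RIOK2, Ns2 and Non1 lie near 0 with Med12.

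Of the 9 tested genes of RNA polymerase I and Myc partners, 4 fell with Med12 (Polr1A, Polr1C, Polr1E and Polr1F) and 1 with Med13, beside 15.5% and 11.2% of all genes. Polr1A, the largest subunit of the enzyme, rose by 0.17 ± 0.05 with CycC (adjusted p = 0.00964, limma), fell by 0.28 ± 0.05 with Med12 (adjusted p = 7.09e-05) and fell by 0.14 ± 0.05 with Med13 (adjusted p = 0.0292). Myc itself was unnamed in the annotation and not analysed here.

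Of 18 tested aminoacyl-tRNA synthetases of the cytosol, which charge tRNA with amino acids, 11 fell with Med12 and 2 with Med13, while 2 rose with Cdk8 and 5 with CycC. Of all genes 15.5% and 11.2% fell with Med12 and Med13, and 10.6% and 13.4% rose with Cdk8 and CycC, so that the Med13 and Cdk8 counts are near these shares. SerRS fell by 0.23 ± 0.04 with Med12 (adjusted p = 3.06e-05, limma). TrpRS rose by 0.10 ± 0.03 with CycC (adjusted p = 0.0428), fell by 0.17 ± 0.03 with Med12 (adjusted p = 0.000639) and fell by 0.10 ± 0.03 with Med13 (adjusted p = 0.0374). The Med12 count became 5 without Med12 replicate 3, 7 without Med12 replicate 2, GFP replicate 3, GFP replicate 4 or Luc replicate 4, and 6 with the Luc arrays as the only control.

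Of 17 tested regulators of translation, 5 rose with Med12, 4 with Med13, 2 with Cdk8 and 2 with CycC, and 1 fell, S6k with CycC (-0.20, adjusted p = 0.00708, limma). Of all genes 26.5%, 21.0%, 10.6% and 13.4% rose in that order, so these counts are near the share over all genes. gig, which encodes Tsc2, a brake on the growth kinase Tor, rose by 0.26 ± 0.04 with Cdk8, 0.11 ± 0.03 with CycC, 0.29 ± 0.03 with Med12 and 0.22 ± 0.03 with Med13. crc, the fly ATF4, rose by 0.16 ± 0.04 with Med12 and 0.18 ± 0.04 with Med13, and PEK, a kinase of eIF2, rose by 0.24 ± 0.05 with Cdk8 and 0.15 ± 0.04 with CycC. Thor and Tor were unnamed in the annotation and not analysed here.

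Of 6 tested genes of termination and ribosome rescue, eRF3 rose with Cdk8 (0.14 ± 0.04, adjusted p = 0.0387, limma), eRF1 with CycC (0.09 ± 0.03, adjusted p = 0.0317) and MCTS1 with Med12 (0.13 ± 0.05, adjusted p = 0.0392). Of 5 tested chaperones of the ribosome, Hsc70-4 rose with Med12 (0.09 ± 0.02, adjusted p = 0.00565) and Med13 (0.08 ± 0.02, adjusted p = 0.0118). Rack1, a small-subunit protein without the prefix, differed by at most 0.01 in size in the 4 knockdowns and did not pass. The counts of these short lists are to be read beside the 10.6%, 13.4%, 26.5% and 21.0% of all genes that rose with Cdk8, CycC, Med12 and Med13.

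**Figure D5:**
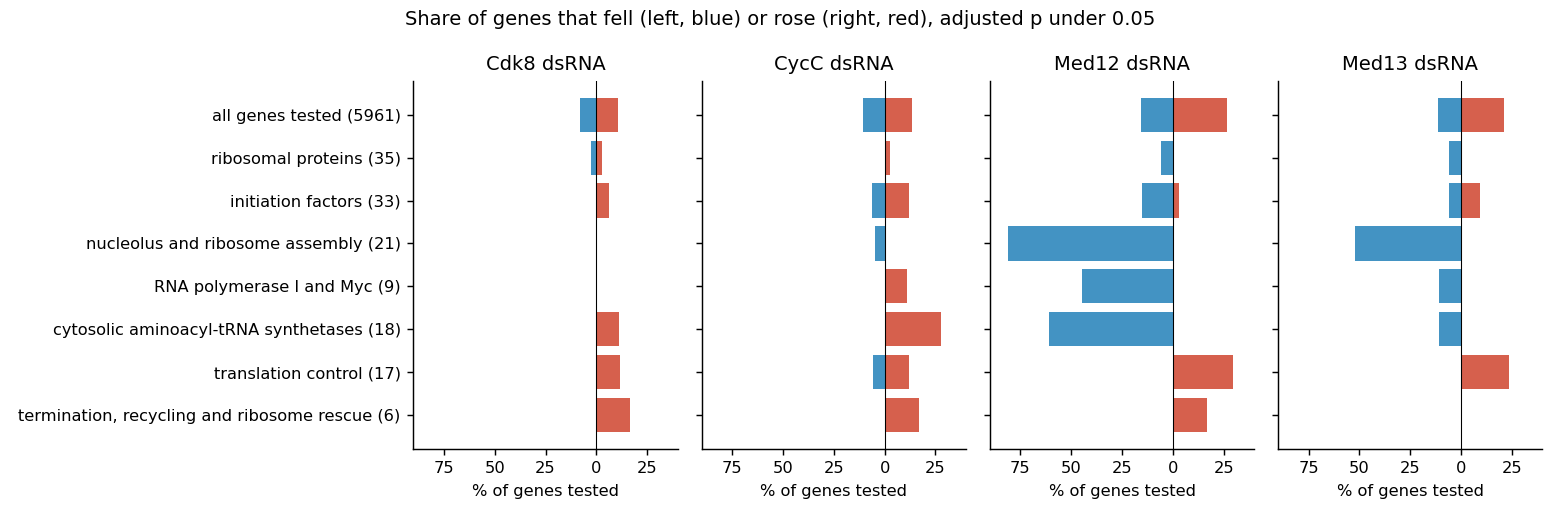
Share of tested genes (x axis, percent) that fell (left, blue) or rose (right, red) with each dsRNA, for all genes, 2 groups of members and 5 other lists (y axis, number tested in parentheses). Ribosomal proteins have shorter bars than all genes in every panel, and the assembly list has the longest blue bars with Med12 and Med13.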

How the data were processed

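Messenger RNA was measured on 22 Affymetrix Drosophila arrays. The values analysed were the intensities of the deposited table, 1 per probe set and array, on a linear scale from 2.02 to 70939. GCRMA, which corrects background, normalizes arrays and summarises probes, is named in the submitters' processing notes, without a version or settings. Its background step can shrink differences of weakly expressed genes.

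The log2 of each intensity was taken. Of 18952 probe sets, 13647 had a single gene symbol and 7289 passed the floor (a log2 intensity of at least 4 on 2 arrays or more); 5961 genes were tested. The model, fitted in limma 3.58.1 (R 4.3.3), had 1 mean for each of the 6 groups (eBayes, 16 residual degrees of freedom, two-sided, Benjamini-Hochberg adjustment over 5961 genes, threshold 0.05), and the control level was the average of the 2 control groups. The script was tested on simulated data. Precision is limited by how many arrays each group has.

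The members and lists were chosen with earlier results of these data known. Values on every array are given for the 5 largest rises and the 5 largest falls among called members of each knockdown and of the pair contrast, for the member called between Cdk8 and CycC, and for the 5 brightest and 5 weakest tested members. For the other lists, the 4 genes with the smallest p in an F test over the 4 knockdowns could be named, with S6k. eIF1, eIF2beta, RIOK2, Ns2, Non1, PEK, MCTS1, Polr1F and other genes outside this rule were chosen after their values were seen. The intensity limits of 14 and 15 were also chosen then. Replicate numbers are shared between groups, and correlations of same-numbered arrays ran from -0.238 to 0.436. A rule that all of them exceed a set limit was met by 1 of 15 pairs of groups, Med13 with GFP, so arrays were not treated as pairs. Cdk8, with 2 arrays, had too few to meet it. The median correlation was lower for same-numbered than for other arrays between Cdk8 and Luc, CycC, Med12 or Med13, and between Med12 and CycC. It was higher in all other pairs of groups. Counts with the replicate number as a block are given below. Alternatives covered scaling, floor, probe sets, controls, the fit, a replicate block and each array left out. No sequence was used.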

Additional observations from a re-analysis of the deposited data

Results flagged for a closer look

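In groups of 4 arrays, 4 of 105 tests (21 members in 5 groups) found 1 array far from the other 3, where chance alone flags about 1 in 20. RpS5b read 5.55 on Med13 replicate 4, against 4.86 to 4.90 on the other Med13 arrays. RpL24-like read 12.38 on Med13 replicate 3, against 12.16 to 12.18, and RpLP0 read 15.57 on the same array, against 15.50 on the others. eEF1gamma read 14.87 on Luc replicate 3, against 14.80 to 14.81 on the other Luc arrays, a step that is small beside its fall of 0.45 with CycC dsRNA.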

How the results depend on the processing

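Of 37 gene results that were recomputed under up to 32 alternatives, none changed direction, and RpS19b, RpLP0-like, eIF5B, eEF1delta and eEF1gamma kept every call. The eIF1 and eIF2beta calls with Med12 and the eIF2Bdelta call in the contrast of the pairs were not among these 37. The cause of the moves below was not tested. The Cdk8 count of 4 members became 7 with centring on the median or quantile normalization, 2 with no floor or only the compared groups in the fit, and 1 with GFP as the only control. The CycC count of 8 became 4 with GFP alone, 5 with Luc alone and 5 with only the compared groups. The count in the contrast of the pairs went from 10 to 19 with quantile normalization and 17 with trend and robust eBayes. Centring moved the member median to -0.044 with Med12 and to -0.0302 with Med13. The synthetase count with Med12 went from 11 to 6 with Luc alone. Leaving out each array in turn gave member counts of 1 to 5 for Cdk8, 2 to 9 for CycC, 8 to 11 for Med12, 8 to 9 for Med13 and 8 to 13 for the pairs, 5 to 11 synthetases with Med12, and member medians from -0.038 to 0.0055 for Cdk8 and from -0.0327 to 0.0123 for Cdk8 against CycC. With the replicate number as a block, for groups that were not treated as paired, the counts were 5, 11, 9 and 8 for Cdk8, CycC, Med12 and Med13, 1 for Cdk8 against CycC, 0 for Med12 against Med13 and for GFP against Luc, and 13 for the pairs. The lists of assembly genes and synthetases were added as alternatives after seeing the data.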
